A study of Mus musculus with 2 samples.

Results

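The genes described here are 33 genes of the cell cycle and of DNA replication, out of 21887 protein-coding genes on chromosomes 1 to 19, X and Y, with the peaks of RUNX2 found in and around them. These genes, and the lists of other genes described further below, were chosen by function but with earlier results of these data known. The rule itself uses no value of a peak. The study mapped RUNX2, a DNA-binding factor of the Runt family that bone formation needs, by CUT&Tag in untreated MC3T3-E1 cells, a mouse line labelled as embryonic osteoblast precursors. CUT&Tag uses an antibody to bring the transposase Tn5 to a chromatin protein, and the enzyme then cuts and tags the DNA around it. The samples used here were 2 replicate libraries of 1 group, with no control library or other condition among them, and whether each had its own culture is not stated in the labels. The deposited lists held 26853 peaks in replicate 1 and 27287 in replicate 2, each given by its position and width only, so that the depth of the libraries is unknown. Where a peak of one list shared 1 bp or more with a peak of the other, they were joined, which gave 18133 shared regions. A region was linked to a gene when its midpoint, taken from the widest replicate 1 peak, lay inside the RefSeq span of the gene or within 10 kb of either end. A link shows position only. With a single group there was no contrast to test, and the main counts are set beside the same counts over all protein-coding genes. Of 7 osteoblast genes used as markers of the labelled cell type (Runx2, Sp7, Alpl, Col1a1, Spp1, Bglap and Ibsp), 4 had a shared region, near the 52.7% of all protein-coding genes, and Alpl, Bglap and Ibsp had none. Within 1 kb of an end the count was 2 of 7, against 32.0% of all protein-coding genes. Peak positions do not measure expression, so these counts are no check of the cell type label.

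The cell cycle is driven by cyclin-dependent kinases (CDKs), which need a cyclin partner to be active. D-type cyclins with CDK4 and CDK6 act in G1 phase and inactivate the retinoblastoma protein RB, which releases E2F transcription factors. E2F then raises cyclin E, cyclin A and the replication genes, among them the MCM helicase subunits and the sliding clamp PCNA, while CDK1 with cyclin B drives mitosis. Inhibitors of the CIP/KIP and INK4 families hold the kinases back, and p53 acts on the cycle through one of them, p21. Osteoblast precursors proliferate before they leave the cycle and differentiate. RUNX2 is known as a regulator of this step that slows the growth of osteoblast precursors.

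Of the 33 genes, 25 (75.8%) had at least 1 shared region, against 52.7% of all protein-coding genes. With the distance to an end of the gene limited to 1 kb, it was 21 (63.6%), against 32.0% of all protein-coding genes. The median span of the 33 genes was 11526 bp, against 17169 bp over all protein-coding genes. In the compared role groups, all 7 replication genes had a shared region, as did 9 of 11 cyclin and CDK genes and 3 of 6 CDK inhibitor genes. The share of the inhibitor genes was close to that of all genes. Within 1 kb of an end the counts were 7 of 7, 7 of 11 and 2 of 6. These groups are small, and the differences between them were not tested. Shared regions linked to the 33 genes numbered 38, none of them linked to more than 1 of these genes. Of these, 21 (55.3%) lay within 1 kb of an end of the linked gene, against 37.9% of the 19065 gene and region pairs over all protein-coding genes. At 8 of the 33 genes there were 2 or more shared regions, against 21.3% of all protein-coding genes. A peak of replicate 1, shared or not, was linked to 27 of the 33 genes, against 60.6% of all protein-coding genes, and a peak of replicate 2 to 28, against 60.7%. The 5 genes with no peak in either list were Ccnd1, Cdkn1c, Cdkn2a, Cdkn2b and Plk1.

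**Figure D1:**
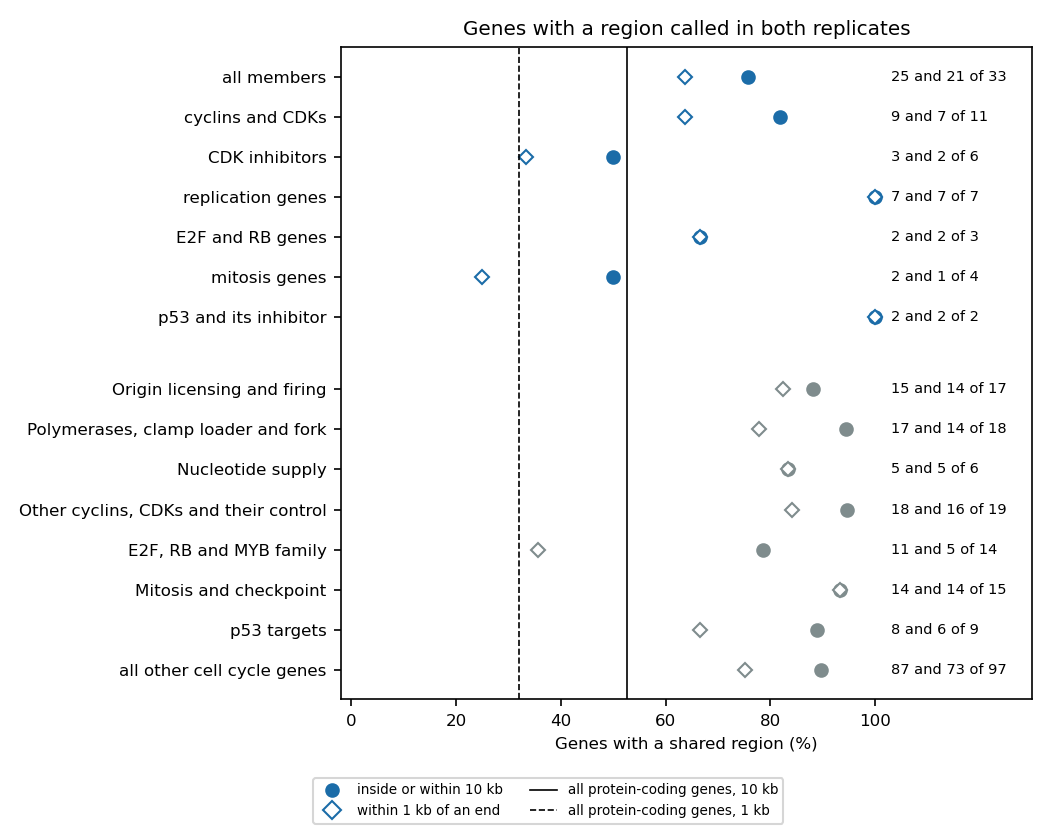
Share of genes with a region called in both replicates, in percent, for the 33 genes and their role groups (blue) and for other cell cycle genes by list (grey). Filled circles count regions inside the gene or within 10 kb, open diamonds those within 1 kb of an end, and the numbers at the right give both counts and the number of genes. The solid and the dashed line give the same shares over all protein-coding genes (52.7% and 32.0%). The replication genes lie at 7 of 7 on both measures, and the CDK inhibitors lie near the lines.

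Among the CDK genes, all 4 had a shared region, and 3 had it at an end of the gene. Cdk4 encodes the G1 kinase that partners D-type cyclins. It had the widest such region of this group, chr10:127062708-127063863, with peaks of 969 bp in replicate 1 and 1141 bp in replicate 2, and its midpoint lay 343 bp outside the gene. Cdk1, the mitotic kinase gene, had a region of 877 bp in replicate 1 and 455 bp in replicate 2 whose midpoint was 190 bp from its end. Cdk2, which encodes the partner of cyclins E and A, had a region of 626 and 560 bp at its start. A further region beyond the other end of Cdk2 (882 and 644 bp) lay 36 bp from an end of Rab5b and so was nearer to that gene. Cdk6, a long gene of 190005 bp that encodes the other G1 kinase, differed from these, since both lists were empty at its listed start. Its single shared region, of 503 bp in replicate 1 and 1075 bp in replicate 2, lay inside the gene 158177 bp downstream of that start.

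The cyclin genes of the cyclin and CDK group were split, with the D-type cyclins apart from the others. Each of its A, B and E cyclin genes (Ccna2, Ccnb1, Ccne1 and Ccne2) had 1 shared region within 1 kb of an end. Over all protein-coding genes the share with such a region was 32.0%. The split does not extend to Ccnb2, a B-type cyclin gene from a list described further below, which had no shared region. With a reciprocal overlap of at least 50%, Ccnb1 and Ccne1 lost their region. At Ccne1 the peak of replicate 1 measured 513 bp and that of replicate 2 226 bp, and at Ccne2 they measured 667 and 408 bp. Both encode cyclin E, which acts at entry into S phase. The peak at the S and G2 phase cyclin gene Ccna2 was 549 and 438 bp wide, and its region was also within 1 kb of an end of the neighbouring gene Bbs7. Ccnb1, which encodes the mitotic cyclin B1, had the narrowest of these, at 394 bp in replicate 1 and 211 bp in replicate 2. In all 4 of these genes replicate 1 had the wider peak.

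None of the 3 D-type cyclin genes, whose products start the cycle in response to growth signals, had a shared region within 1 kb of an end. Ccnd1 had no peak in either list, and its nearest shared region (chr7:144914418-144915564) was 14940 bp away. Ccnd2 had 1 peak in each replicate, of 236 bp and 192 bp, at different places inside the gene, so that none was shared. Ccnd3 had 5 shared regions, more than any other of the 33 genes, in a span of 94639 bp. The widest of them (520 bp in replicate 1 and 531 bp in replicate 2) lay 157 bp from an end of the neighbouring gene Taf8 and 2887 bp outside Ccnd3. The other 4 lay inside Ccnd3, with widths of 229 to 461 bp in replicate 1 and 174 to 313 bp in replicate 2. The region of 280 and 275 bp among them covered the inner of the 2 transcription starts that RefSeq lists for Ccnd3. The outer start had no peak over it in either list.

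The promoters of Cdk4 (chr10:127063285-127063584, plus strand) and Cdk1 (chr10:69352863-69353162, minus strand) are shown because they lie under the widest shared regions at listed starts in this group. The windows run from 250 bases before to 50 bases after the listed start, 5′ to 3′ on the strand of the gene, from RefSeq GRCm38.p6. Capitals here and in the sequences that follow mark each match, on either strand, to 6 letter strings. These are the RUNX core TGTGGT, the E2F strings GGCGGGA and TTGGCGC, the cell cycle homology string TTTGAA, the CCAAT box and the AP-1 string TGANTCA. The Cdk4 window holds the RUNX core as ACCACA at positions -154 and -66 from the start, and the shared region covers all 300 bases of it. The Cdk1 window has no RUNX core and holds 3 copies of CCAAT, 2 of TTTGAA and 1 of TTGGCGC.
Cdk4: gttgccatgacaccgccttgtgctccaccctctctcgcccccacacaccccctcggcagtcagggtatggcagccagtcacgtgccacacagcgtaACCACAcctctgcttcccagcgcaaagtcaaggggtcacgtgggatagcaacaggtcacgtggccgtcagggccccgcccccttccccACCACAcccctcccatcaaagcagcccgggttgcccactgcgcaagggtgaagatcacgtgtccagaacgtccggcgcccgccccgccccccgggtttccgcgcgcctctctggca
Cdk1: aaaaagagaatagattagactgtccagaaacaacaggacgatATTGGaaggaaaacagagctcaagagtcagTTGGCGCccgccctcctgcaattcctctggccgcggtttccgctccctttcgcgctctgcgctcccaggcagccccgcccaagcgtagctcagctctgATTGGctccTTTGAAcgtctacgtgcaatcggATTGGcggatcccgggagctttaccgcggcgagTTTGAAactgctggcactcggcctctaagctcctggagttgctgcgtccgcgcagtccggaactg

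The CDK inhibitor genes divided into 3 with shared regions and 3 with no peak in either list. Cdkn1b encodes p27, which binds CDK2 complexes. It had a region across its start (chr6:134920197-134920697, with peaks of 485 bp in replicate 1 and 481 bp in replicate 2) and another 3100 bp beyond its other end, with peaks of 488 bp in replicate 1 and 1100 bp in replicate 2. Cdkn2c, the gene of the INK4 protein p18, had a region 315 bp outside its end (385 and 560 bp) and another 9600 bp away (958 and 652 bp), which lay 271 bp from an end of Faf1. Cdkn1a encodes p21, the inhibitor induced by p53. Its single region (chr17:29093574-29094061, 477 bp in replicate 1 and 242 bp in replicate 2) lay 2844 bp inside the gene. It was over 1 kb from either end of the span, and it covered the inner of the 2 starts that RefSeq lists, with its midpoint 54 bp from that start.

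Cdkn1c, Cdkn2a and Cdkn2b lacked peaks in both lists, within their spans and for 10 kb on either side. Cdkn1c encodes p57, an imprinted inhibitor of the CIP/KIP family. Cdkn2a encodes p16 and, from another start, the p53 pathway protein ARF, and Cdkn2b encodes p15. Cdkn2a and Cdkn2b are neighbours on chromosome 4, and their nearest shared regions were 146013 bp and 175626 bp away. The region nearest to Cdkn1c was 88155 bp away. The lists contain called peaks only, and signal under the calling limit is not seen in them.

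The promoters of Cdkn1b (chr6:134920151-134920450, plus strand) and Cdkn2c (chr4:109666707-109667006, minus strand) are the inhibitor promoters under the widest shared regions. Both windows of Cdkn1a are shown with them, the outer (chr17:29090729-29091028, plus strand), with no peak, and the inner (chr17:29093519-29093818, plus strand), under a shared region. That pair was chosen after its peaks were seen. No inhibitor window holds the RUNX core, and the 2 windows of Cdkn1a hold none of the 6 strings.
Cdkn1b: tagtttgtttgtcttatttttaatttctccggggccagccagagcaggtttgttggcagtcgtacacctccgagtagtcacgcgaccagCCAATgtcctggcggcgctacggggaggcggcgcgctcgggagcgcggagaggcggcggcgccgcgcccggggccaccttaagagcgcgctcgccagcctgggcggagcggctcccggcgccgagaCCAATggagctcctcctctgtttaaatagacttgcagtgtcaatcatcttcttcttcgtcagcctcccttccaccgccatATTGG
Cdkn2c: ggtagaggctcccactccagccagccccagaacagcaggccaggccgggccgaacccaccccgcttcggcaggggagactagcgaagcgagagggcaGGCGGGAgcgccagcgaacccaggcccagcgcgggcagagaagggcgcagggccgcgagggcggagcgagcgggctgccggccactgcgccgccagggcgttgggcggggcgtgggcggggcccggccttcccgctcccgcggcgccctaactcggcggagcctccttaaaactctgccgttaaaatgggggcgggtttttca
Cdkn1a outer start: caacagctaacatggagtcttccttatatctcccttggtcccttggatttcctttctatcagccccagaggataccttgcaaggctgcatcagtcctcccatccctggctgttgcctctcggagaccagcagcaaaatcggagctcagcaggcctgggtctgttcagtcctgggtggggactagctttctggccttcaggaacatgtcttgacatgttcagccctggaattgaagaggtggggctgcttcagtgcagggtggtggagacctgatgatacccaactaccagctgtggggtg
Cdkn1a inner start: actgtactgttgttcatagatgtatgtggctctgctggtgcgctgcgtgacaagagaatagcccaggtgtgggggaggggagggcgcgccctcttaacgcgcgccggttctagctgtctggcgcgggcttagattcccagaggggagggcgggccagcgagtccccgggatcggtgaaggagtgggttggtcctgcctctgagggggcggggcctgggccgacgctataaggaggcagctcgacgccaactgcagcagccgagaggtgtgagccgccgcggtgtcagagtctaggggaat

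Each of the 7 replication genes had a shared region within 1 kb of an end. Mcm2 to Mcm7 encode the 6 subunits of the replicative helicase, and Pcna encodes the clamp that holds DNA polymerase on its template. The widest region was that of Mcm7 (chr5:138171031-138172418), with peaks of 1272 bp in replicate 1 and 1388 bp in replicate 2. Pcna followed with 938 and 913 bp (chr2:132252558-132253542), Mcm5 with 666 and 726 bp, and Mcm4 with 490 and 747 bp. Mcm6 (263 and 514 bp), Mcm3 (385 and 304 bp) and Mcm2 (357 and 189 bp) had the narrowest. The helicase genes thus spanned a wide range, from narrow peaks to peaks among the widest of the lists. By mean rank of width over both replicates, the Mcm7 region stood at percentile 99.31 of all peaks and the Mcm2 region at percentile 26.2.

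At 3 of the 7 replication genes the region was also within 1 kb of an end of a neighbouring protein-coding gene. These neighbours were Prkdc beside Mcm4 (279 bp from the midpoint), Ap4m1 beside Mcm7 (239 bp) and Cds2 beside Pcna (312 bp). Prkdc and Ap4m1 lay nearer to the midpoint than Mcm4 (323 bp) and Mcm7 (329 bp), so for these the link to the replication gene is not the nearest. Further regions were linked to Mcm2, 3638 bp away and 167 bp from an end of Tpra1, and to Pcna. The Pcna regions lay 1601 bp beyond the gene (264 bp in replicate 1 and 311 bp in replicate 2) and 9868 bp beyond its other end (207 and 1089 bp). Both were nearer to an end of another gene, the first to Tmem230 (1374 bp) and the second to Cds2 (9710 bp). Among the 38 regions, the one 9868 bp away had the largest difference in width between replicates (5.26 times).

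The promoters of Mcm7 (chr5:138171834-138172133, minus strand) and Pcna (chr2:132253131-132253430, minus strand) lie wholly under shared regions. The Mcm7 window belongs to the outer of the 2 listed starts. All 7 promoter windows listed for replication genes hold CCAAT, 3 copies in the Mcm7 window and 1 in the Pcna window. Of the 2 windows shown, that of Mcm7 also holds an E2F string, as GCGCCAA overlapping a CCAAT.
Mcm7: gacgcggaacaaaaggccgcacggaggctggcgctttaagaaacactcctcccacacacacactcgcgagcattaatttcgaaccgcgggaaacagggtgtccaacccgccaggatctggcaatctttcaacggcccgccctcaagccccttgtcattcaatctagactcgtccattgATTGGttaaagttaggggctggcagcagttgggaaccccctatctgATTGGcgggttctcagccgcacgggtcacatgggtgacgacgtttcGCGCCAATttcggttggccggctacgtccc
Pcna: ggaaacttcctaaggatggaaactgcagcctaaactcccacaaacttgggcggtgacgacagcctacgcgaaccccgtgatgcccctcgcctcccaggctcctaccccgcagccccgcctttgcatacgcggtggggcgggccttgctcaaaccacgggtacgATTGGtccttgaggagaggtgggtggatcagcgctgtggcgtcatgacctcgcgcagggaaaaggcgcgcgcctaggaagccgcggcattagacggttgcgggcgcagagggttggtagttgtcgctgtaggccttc

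In the E2F and RB group, E2f1 and E2f3 had a region at the end where transcription starts, and Rb1 had none that was shared. E2f1 and E2f3 encode activating E2F factors. The E2f1 region held peaks of 551 bp in replicate 1 and 467 bp in replicate 2, and its replicate 1 peak reached just over the end of the gene span. The start that RefSeq lists for E2f1 lies farther inside, and its window was not reached. The E2f3 region (500 and 604 bp) covered the outer of 2 listed starts, and the inner start had no peak. Rb1, which encodes RB, had a peak of 266 bp in replicate 1, which lay 45230 bp inside the gene, and a peak of 411 bp in replicate 2, which lay 313 bp outside an end.

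The mitosis genes had shared regions in 2 of 4 cases, and at an end in 1. Top2a, which encodes the topoisomerase that untangles sister chromatids, had a region 138 bp outside its end (302 bp in replicate 1 and 480 bp in replicate 2). Aurkb, which encodes a kinase of the chromosomal passenger complex, had 3 shared regions at 4448, 5270 and 8002 bp from the gene, and a peak of replicate 2 at its own end (354 bp). The last of the 3 was 109 bp from an end of Borcs6, and the one at 5270 bp was 3881 bp from an end of Ctc1. Both were thus nearer to another gene. Mki67, the gene of the proliferation marker Ki-67, had a single peak, in replicate 2, which at 165 bp was among the narrowest of that list (percentile 1.6). Plk1, which encodes a mitotic kinase, had no peak in either list, and its nearest shared region was 57600 bp away.

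Both genes of the p53 arm had a region at their start. Mdm2 encodes the ubiquitin ligase that degrades p53 and is itself induced by p53. Its region chr10:117709777-117711133 had peaks of 1357 bp in replicate 1 and 1275 bp in replicate 2, and with Mcm7 it was the widest of the 38 regions. A further Mdm2 region (752 and 658 bp) lay 7051 bp beyond the start. The region at Trp53, the p53 gene, had a widest peak of 614 bp in replicate 1 and 951 bp in replicate 2. Its midpoint was 274 bp from an end of Trp53 and 176 bp from an end of Wrap53, and so was nearer to Wrap53.

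The promoters of E2f3 (chr13:29986014-29986313, minus strand), Top2a (chr11:99024140-99024439, minus strand) and Mdm2 (chr10:117710709-117711008, minus strand) stand for these 3 groups. E2f3 and Top2a hold E2F strings, TTTGAA and the CCAAT box, and Mdm2 holds a single CCAAT.
E2f3: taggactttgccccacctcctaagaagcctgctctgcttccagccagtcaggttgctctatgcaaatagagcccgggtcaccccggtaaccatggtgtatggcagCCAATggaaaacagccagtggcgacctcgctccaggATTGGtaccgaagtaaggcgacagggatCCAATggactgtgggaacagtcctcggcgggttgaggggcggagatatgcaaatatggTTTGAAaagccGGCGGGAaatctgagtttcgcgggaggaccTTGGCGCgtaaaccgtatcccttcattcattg
Top2a: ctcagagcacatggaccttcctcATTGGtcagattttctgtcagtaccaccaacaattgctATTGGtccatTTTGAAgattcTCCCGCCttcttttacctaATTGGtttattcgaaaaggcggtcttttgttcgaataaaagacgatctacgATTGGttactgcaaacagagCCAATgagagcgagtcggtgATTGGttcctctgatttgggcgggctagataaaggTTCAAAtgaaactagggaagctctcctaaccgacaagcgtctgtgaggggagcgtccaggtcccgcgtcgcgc
Mdm2: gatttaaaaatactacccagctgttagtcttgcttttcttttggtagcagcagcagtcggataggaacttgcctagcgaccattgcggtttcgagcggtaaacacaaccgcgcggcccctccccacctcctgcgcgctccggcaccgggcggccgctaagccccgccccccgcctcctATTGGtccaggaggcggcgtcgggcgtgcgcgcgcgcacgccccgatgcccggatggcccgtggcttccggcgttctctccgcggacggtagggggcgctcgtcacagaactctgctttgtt

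**Figure D2:**
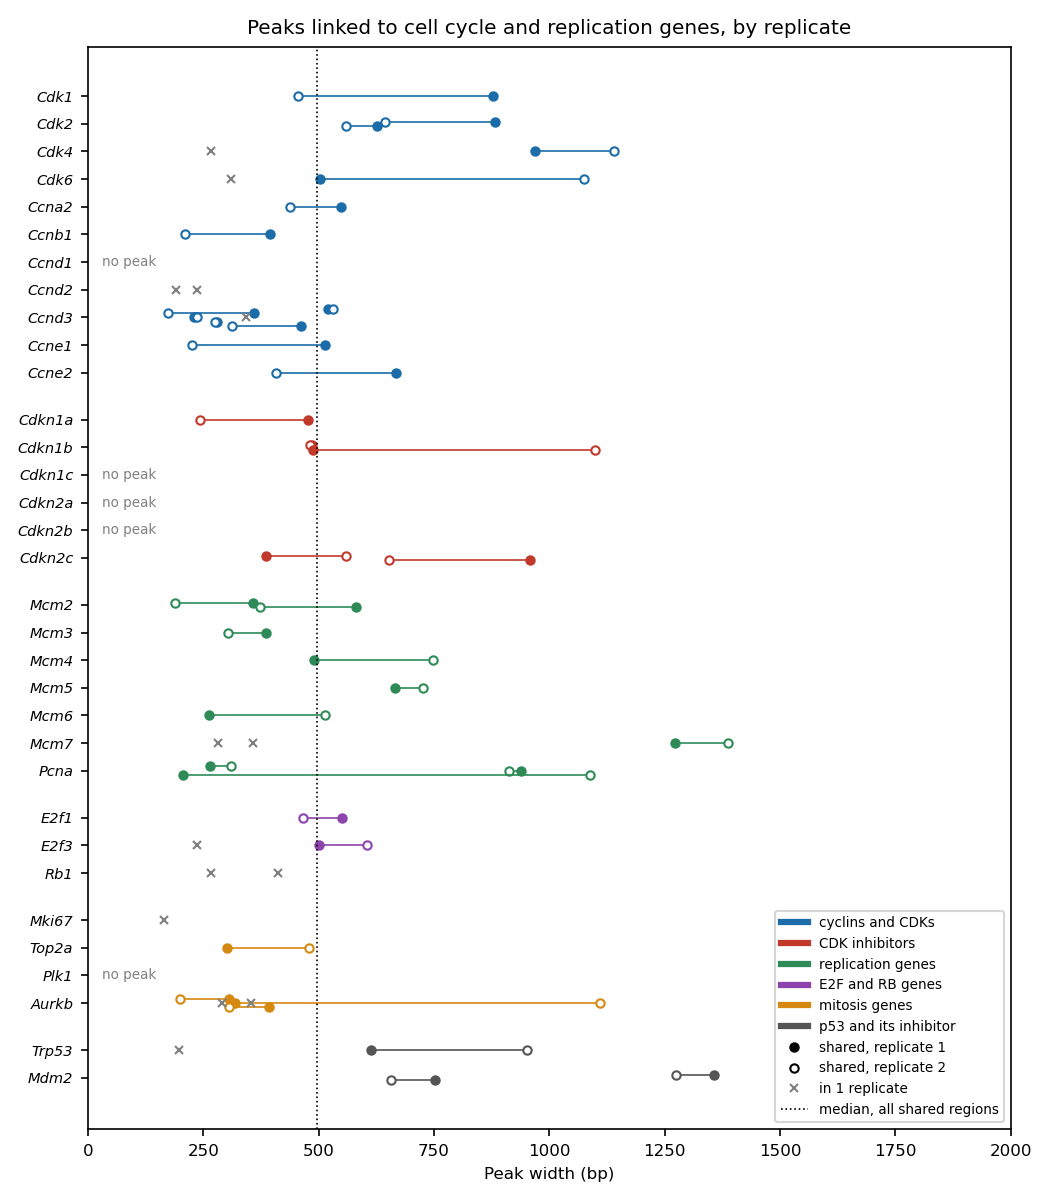
Width in bp of every peak linked to the 33 genes, by gene and role group. Filled and open circles joined by a line are the widest peaks of 1 shared region in replicate 1 and in replicate 2, crosses are peaks of a single replicate, and the dotted line is the median over all shared regions (496 bp). Mcm7 and Mdm2 stand farthest to the right, between 1272 and 1388 bp, and 5 genes had no peak.

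Transcription starts could be placed for 25 of the 33 genes. Ccna2, Ccnd1, Ccnd2, Ccne2, Cdkn1c, Mcm4, Rb1 and Aurkb have no entry in the promoter table used, and their ends were not assigned a direction. Of the 25 genes, 19 had a promoter window overlapped by a shared region, against 33.0% of the 17492 protein-coding genes in the table. The windows numbered 31, of which 20 (64.5%) were overlapped, against 31.0% of all 21263 windows. By group this was 7 of 7 windows for replication genes, where Mcm7 has 2 and Mcm4 has none, 6 of 8 for cyclins and CDKs and 3 of 8 for CDK inhibitors. The midpoints of the 18 regions within 1 kb of an end in genes with a listed start all lay within 1 kb of a start, at a median distance of 201.5 bp. They lay on both sides of it, with 10 upstream and 8 downstream, from -718 to 303 bp. There were 6 genes with 2 listed starts. In 4 of them (Ccnd3, Cdkn1a, Cdkn2c and E2f3) the shared region overlapped 1 of the windows, in Mcm7 both and in Cdkn2a neither. The overlapped window was the inner in Ccnd3 and Cdkn1a and the outer in Cdkn2c and E2f3.

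**Figure D3:**
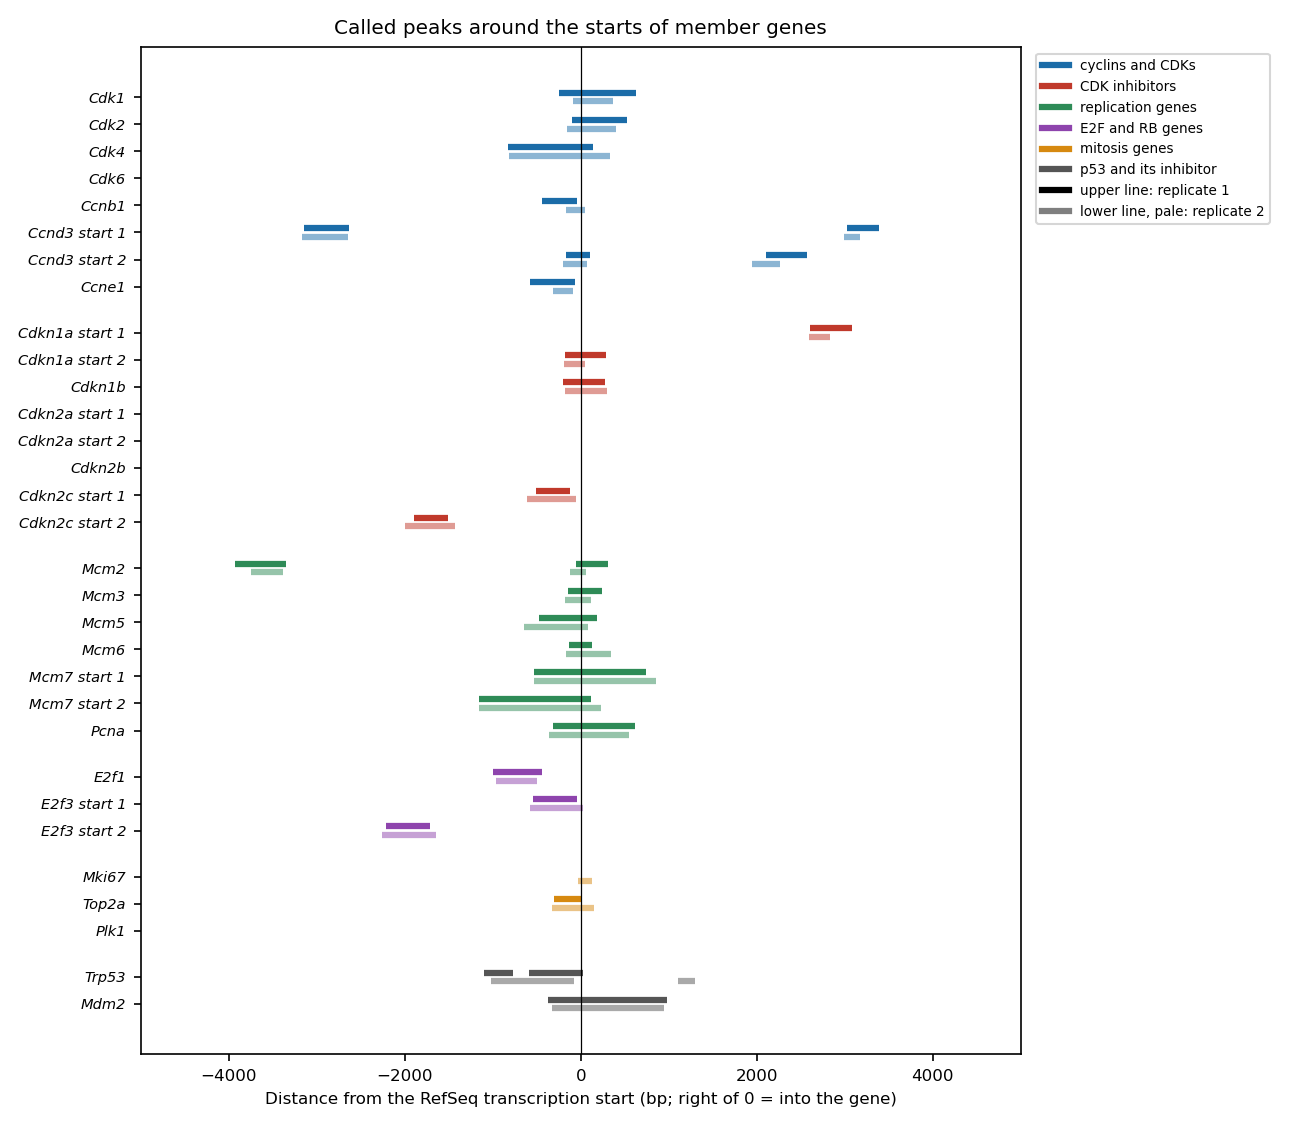
Called peaks within 5 kb of each listed transcription start of the 25 genes, as distance from the start in bp with the gene running to the right. Dark upper lines are replicate 1 and pale lower lines replicate 2, in the colour of the role group, and genes with 2 listed starts have a row for each, numbered from the outer. Peaks of both replicates lie over or beside the start in most rows, and at Cdk6, Cdkn2a, Cdkn2b and Plk1 there is none.

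Away from the ends, 17 regions lay over 1 kb from either end of the linked gene. Of these, 5 were within 1 kb of an end of another protein-coding gene, beside Cdk2, Ccnd3, Cdkn2c, Mcm2 and Aurkb. Another 6 lay inside Ccnd3 (4), Cdk6 and Cdkn1a, over 1 kb from any protein-coding gene end. The last 6 lay outside the gene, beside Cdkn1b, Pcna, Aurkb and Mdm2. Among the replication genes, whose spans run from 3895 to 28131 bp, none of the 10 linked regions lay inside the gene over 1 kb from an end. The same held for the regions of the E2F and RB, mitosis and p53 groups, so it is not particular to replication genes. These places were not counted over all protein-coding genes, so no share stands beside them.

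The widths of these regions were like those of all shared regions. The median width was 495 bp in replicate 1 and 497.5 bp in replicate 2 over the 38 regions, against 492 and 497 bp over all shared regions. For the 21 regions within 1 kb of an end it was 549 and 514 bp, against 539 and 544 bp for all shared regions within 1 kb of a protein-coding gene end. The wider peak of a region was a median of 1.46 times as wide as the narrower, against 1.31 times over all shared regions, and 6 of the 38 (15.8%) differed by more than 2 times, against 13.7%. Of the peaks linked to the 33 genes, 39 of 44 in replicate 1 (88.6%, with a Wilson interval at 95% confidence of 76.0 to 95) were shared, against 68.2% (67.7 to 68.8) of all peaks. In replicate 2 it was 38 of 47 (80.9%, 67.5 to 89.6), against 67.2% (66.6 to 67.7). The intervals cover counting error only and treat peaks as independent, though several can lie at 1 gene. All peaks include those far from genes. Whether the higher share is particular to the 33 genes was not tested. Linked peaks without a partner in the other list came to 5 for replicate 1 and 9 for replicate 2, and were 165 to 411 bp wide.

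**Figure D4:**
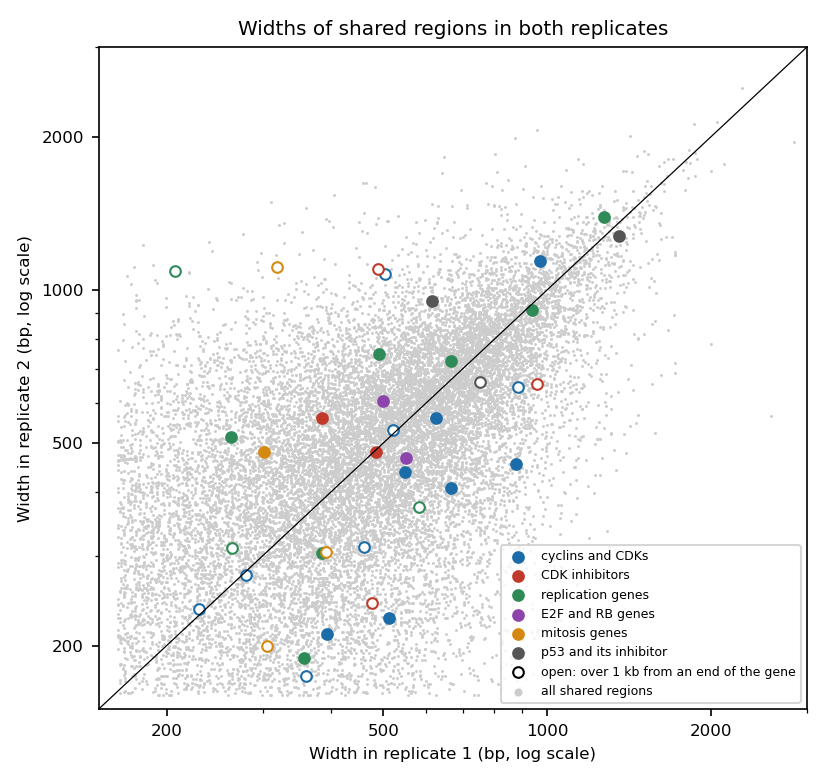
Width of each shared region in replicate 1 and in replicate 2, in bp on log axes, for the 38 regions linked to the 33 genes (coloured by role group) and for all shared regions (grey). Filled points lie within 1 kb of an end of the linked gene, open points farther away, and the line marks equal widths. The regions farthest above the line are open points, at Pcna (207 and 1089 bp) and Aurkb (319 and 1109 bp).

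The promoter windows of the 33 genes held E2F strings and CCAAT at higher shares than all windows. For the RUNX core the count was small, and a difference from all windows cannot be read from it. The RUNX core TGTGGT was found in 3 of the 31 windows (9.68%), against 15.0% of all protein-coding windows. These were the windows of Cdk4 and Mcm3, both overlapped by a shared region, and of Plk1, which had no peak. Over all protein-coding windows, 11.9% of those overlapping a shared region held it, against 16.3% of those overlapping none. Of the 20 windows of these genes that a shared region overlapped, 2 held the RUNX core. At least 1 of the E2F strings was in 13 of the 31 windows (41.9%), against 17.2% of all windows, and TTGGCGC alone in 8 (25.8%), against 3.09%. Among windows overlapped by a shared region, an E2F string was in 11 of 20 (55.0%), against 28.3% of all such windows. CCAAT was in 20 (64.5%), against 38.2%, and TTTGAA in 7 (22.6%), against 16.0%. The AP-1 string TGANTCA was in 0 of 31 windows, against 6.99% of all. In the replication group TTGGCGC was in 4 of 7 windows and CCAAT in 7 of 7. In the inhibitor group these counts were 0 and 3 of 8. TTGGCGC can overlap CCAAT on the opposite strand, so that 1 stretch can count for both. Matches were sought in these windows only and describe letters, not bound sites.

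Other genes of the same pathways, from 7 lists, were linked to shared regions in 87 of 97 cases (89.7%), and within 1 kb of an end in 73 (75.3%). The same measures were 52.7% and 32.0% over all protein-coding genes. Ccng1 is in both the list of other cyclins and that of p53 targets, and was counted once among the 97. Of the genes for origin licensing and firing, 15 of 17 had a region, with the widest at Cdt1, which loads the helicase (1042 bp in replicate 1 and 1048 bp in replicate 2), and at Cdc45, which activates it (1147 and 928 bp). Orc4 and Gins3 had none. Of the polymerase, clamp loader and fork genes, 17 of 18 had a region, and Rfc2 had none. The widest (1331 and 1091 bp) was at Fen1, which encodes the flap nuclease of lagging strand synthesis. Its midpoint was 114 bp from an end of Fen1 and 77 bp from an end of Tmem258, and so was nearer to Tmem258. Next came Pola2, a subunit of the primase and polymerase complex. The Pola2 region of 628 and 952 bp lay inside the gene, 4851 bp from its nearer end. Among nucleotide supply genes 5 of 6 were linked, among them the ribonucleotide reductase gene Rrm2 (819 and 996 bp), while the thymidylate synthase gene Tyms was not.

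The mitosis and checkpoint genes outside the 33 were linked in 14 of 15 cases, all of them within 1 kb of an end, with the widest at Incenp (918 and 829 bp) and Bub3 (752 and 860 bp). Incenp encodes the scaffold of the complex that holds the Aurkb kinase, and Bub3 a spindle checkpoint protein. Only Bub1b was not linked. Other cyclins, CDKs and their controls were linked in 18 of 19 cases, with Ccnb2 as the exception. Cks1b, a CDK-binding subunit (903 and 1575 bp), and Ccnf, the cyclin F gene (997 and 980 bp), were in front. The Cks1b region was 383 bp from an end of Cks1b and 123 bp from an end of Shc1, and so was nearer to Shc1. The E2F, RB and MYB family stood lower than the other lists near gene ends. Of its 14 genes, 11 (78.6%) had a region within 10 kb. Within 1 kb of an end 5 (35.7%) had one, close to the 32.0% of all protein-coding genes. Its widest regions, at the mitotic regulator gene Foxm1 (929 and 823 bp) and at E2f6 (637 and 765 bp), were 7263 and 9745 bp from the gene, and that of Foxm1 was 142 bp from an end of Tulp3. Tfdp2, Lin9 and Mybl2 had none. Of 9 p53 target genes, 8 were linked, and Zmat3 was not. The widest regions were at the apoptosis gene Bbc3 (1111 and 1116 bp, inside the gene 4885 bp from its nearer end) and at Sesn1 (949 and 963 bp). The Sesn1 region was 499 bp from an end of Sesn1 and 207 bp from an end of Cep57l1, and so was nearer to Cep57l1.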

How the data were processed

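RUNX2 CUT&Tag in MC3T3-E1 cells gave 1 deposited peak list for each of 2 replicate libraries. The submitters' processing notes list fastp 0.19.6, deepTools and Bowtie2 with no order or role, and name GRCm38 (mm10) as build. Which caller and threshold made the lists, and with what control, is not given in the sources used here. In each deposited list there are 5 columns with no header, read as number, chromosome, start, end and width. In all lines, start and end are both part of the stated width, so positions count from 1. Lists are per replicate, not pooled, and hold no score, and the width of a peak is the authors' own value.

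Gene spans and promoter windows came from RefSeq tables of GRCm38.p6 (49943 genes, of which 21887 protein-coding). All 33 genes matched by symbol, and 25 had promoter windows. The windows read along the strand of the gene: in all 1668 checked pairs of windows on opposite strands, the overlapping stretches were reverse complements. The tables hold no exons, and sequences of peaks were not used here. Overlaps were computed in Python 3.11.15 with numpy 2.4.6, pandas 2.3.3 and scipy 1.17.1 and checked against bedtools 2.31.1, and links were tested on simulated data. The ranking of regions used the mean over replicates of the percentile of peak width. Width stood in for the missing score as the stricter threshold.

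The genes and lists were chosen with earlier results of these data known. Every one of the 33 genes is named. Of the other genes, the text names the 2 of each list with the highest mean rank of width and those without a region, except 1 gene that is not reported here. Of the 98 other genes listed, Cdk3 was not analysed here. Promoters shown were the 2 of each compared group and the 1 of each other group under the regions of highest mean rank, with the 2 Cdkn1a windows added later. Alternatives were wider peaks only, a reciprocal overlap of at least 50%, other positions and distances, the nearest gene end, and each replicate alone.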

Additional observations from a re-analysis of the deposited data

How the results depend on the processing

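With either replicate alone, 27 to 28 of the 33 genes were linked (60.6% to 60.7% of all protein-coding genes) and 21 to 24 had a peak within 1 kb of an end (36.9% to 37.0% of all protein-coding genes). Replicate 2 alone added Rb1, Mki67 and Aurkb near their ends. When only peaks above the median width of each list were kept, 17 were linked (36.0% of all protein-coding genes) and 14 within 1 kb of an end (20% of all). Replication genes then fell to 4 of 7, without Mcm2, Mcm3 and Mcm6, and mitosis genes to 0 of 4. With no distance beyond the gene allowed, midpoints outside a gene no longer counted, and 13 of the 33 genes were linked (30.3% of all). This left 4 of the replication genes, 0 of the E2F and RB genes and 0 of the mitosis genes. It also left 1 of the 2 p53 genes and 52 of the 97 other genes. With regions given only to the nearest protein-coding gene end, 22 were linked (41.1% of all), without Mcm4, Mcm7 and Trp53, which left 1 of the 2 p53 genes. The count of the 97 other genes was then 75. A reciprocal overlap of at least 50% gave 21 (44.8% of all), without Cdk6, Ccnb1, Ccne1 and Cdkn1a. Within 1 kb of an end it gave 18 (25.9% of all), without Ccnb1, Ccne1 and Mcm2, so not all replication genes kept a region there. Links within 50 kb gave 28 (69.9% of all), with Ccnd1, Ccnd2 and Rb1 added. The other alternatives left the count at 25 (47.9% to 52.8% of all) or, near an end, between 19 and 21 (28.8% to 35.3% of all). Without the limit of 1 kb from an end, CDK inhibitor genes were at 2 or 3 of 6 under each alternative. The share of all protein-coding genes ran from 30.3% to 69.9% over the same alternatives. Near an end, Cdkn2c lost its region when only wider peaks were kept. The median width, 517 bp as a mean of both replicates, was 495 to 497.5 bp for a single replicate and 537.5 bp for regions within 1 kb of an end. No paired analysis was possible because there is a single group. Depth is unknown, and an absent peak may be a matter of the calling limit.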
